A study of Mus musculus with 54 samples.

Results

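The comparison concerned microglia that had taken up alpha-synuclein (aSyn) and asked how their messenger RNA differed after the first 15 min of contact with unloaded microglia. The 6 libraries were chosen by their titles, as the donor libraries of 15 min and of 0 min with replicate numbers 1, 2 and 3, out of 54 libraries in all. Each group holds 3 libraries, and same-numbered libraries were compared as pairs.

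All cells were primary microglia of neonatal C57BL/6 mice, per the labels. The cells of 2 brains were pooled per flask, grown for 7 to 10 days with L929 supernatant, and shaken off the astrocyte layer. Donors of both groups had been given 1 µM Atto-488-labelled aSyn for 14 h, and the labels do not give the amount that the cells held. The 15 min group was then co-cultured with acceptors, microglia stained with CellTracer Violet, and separated from them again by flow cytometric sorting. The labels call the other group 0 min and do not say whether its cells were mixed or sorted, and the handling before RNA collection therefore cannot be told apart from the time. Replicate numbers are called experiments here, and the labels give passage 3 for experiment 1, passage 1 for experiment 2 and passage 2 for experiment 3. Nothing states that the numbers are separate litters or cultures, so p-values measure the spread between these libraries only. Acceptors, donors of other times, loaded cells without co-culture and untreated cells are used for comparison.

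The 6 libraries held between 11429307 and 15029452 counts, with 13597 to 13960 genes detected in each. The ribosomal RNA precursor Rn45s took 6.94% to 8.60% of counts in experiments 1 and 2 and 3.81% and 3.47% in experiment 3, the groups being close within an experiment. All 15 microglial markers listed, among them Cx3cr1, Trem2 and C1qa, were in the data, and their summed level was 12966 to 15825 counts scaled to library size (CPM) at 0 min and 12466 to 16107 CPM at 15 min. Astrocyte markers summed to 9.21 to 15.6 CPM at 0 min and 13.6 to 24.6 CPM at 15 min, oligodendrocyte and precursor markers to 160.0 to 221 CPM, border macrophage and monocyte markers to 831 to 1032 CPM and endothelial markers to 60.2 to 91.8 CPM over the 6 libraries. Fibroblast and lymphocyte markers reached at most 13.3 and 13.9 CPM, neuronal markers 4.33 CPM and neutrophil markers 1.14 CPM. Of 9 tested astrocyte markers, 2 were higher at an unadjusted p under 0.05 (edgeR), as were 1.45% of all tested genes. The astrocyte sum went from 15.58 to 15.64 CPM in experiment 1 and from 9.21 to 13.57 CPM in experiment 2. In experiment 3, where most early genes given below were nearly level, it went from 11.96 to 24.6 CPM. The fibroblast sum there went from 3.76 to 9.89 CPM, while the oligodendrocyte and precursor sum was 219 and 221 CPM. The part of these markers in the results was not tested. Of the 9 marker lists, 0 held a gene called between the groups, in the fit of all experiments or of the 6 libraries alone.

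Microglia are the resident macrophages of the brain and clear extracellular protein, including aggregates of aSyn, through phagocytosis and lysosomal breakdown. Immediate early genes are the first genes a stimulated cell transcribes, because their factors are already present in the resting cell. They encode transcription factors such as Fos and Egr1, and feedback proteins that end the response, such as the phosphatase Dusp2 and the RNA-binding protein Zfp36, which marks inflammatory transcripts for decay. Their transcripts appear within minutes and are short-lived, which makes them the group of genes most able to differ over an interval as short as 15 min.

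Promoter sequences are shown for 4 genes of the early response that were higher at 15 min in experiments 1 and 2, chosen because their windows hold matches to different motifs. The sequences come from RefSeq on GRCm38.p6 and span 250 bases before to 50 bases after the transcription start, written 5′ to 3′ on the strand of the gene. Capitals mark matches to motifs searched on both strands: TGACGTCA (the cAMP response element), TGANTCA (the AP-1 site), TATAAA as the core of the TATA box, the CCAAT box, the CArG box of serum response factor, and the NF-kB site.
Btg2 (chr1:134079106-134079405, minus strand): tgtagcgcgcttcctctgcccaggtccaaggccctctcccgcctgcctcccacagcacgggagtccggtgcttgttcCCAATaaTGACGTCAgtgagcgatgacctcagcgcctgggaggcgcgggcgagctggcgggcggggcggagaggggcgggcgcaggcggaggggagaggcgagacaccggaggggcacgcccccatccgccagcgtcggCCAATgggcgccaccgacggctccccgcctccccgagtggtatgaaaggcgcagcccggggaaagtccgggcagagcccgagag
Fos (chr12:85473640-85473939, plus strand): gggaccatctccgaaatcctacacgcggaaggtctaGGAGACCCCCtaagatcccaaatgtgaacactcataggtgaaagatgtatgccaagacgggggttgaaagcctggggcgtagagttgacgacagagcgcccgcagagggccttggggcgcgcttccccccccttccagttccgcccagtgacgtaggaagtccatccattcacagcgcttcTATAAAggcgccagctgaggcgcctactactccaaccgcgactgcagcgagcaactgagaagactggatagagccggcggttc
Ier3 (chr17:35821463-35821762, plus strand): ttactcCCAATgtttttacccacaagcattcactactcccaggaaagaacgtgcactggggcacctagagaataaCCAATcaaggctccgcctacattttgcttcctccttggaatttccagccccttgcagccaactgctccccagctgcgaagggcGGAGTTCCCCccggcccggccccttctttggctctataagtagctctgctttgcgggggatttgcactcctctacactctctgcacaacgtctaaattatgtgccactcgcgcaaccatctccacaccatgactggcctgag
Zfp36 (chr7:28379179-28379478, minus strand): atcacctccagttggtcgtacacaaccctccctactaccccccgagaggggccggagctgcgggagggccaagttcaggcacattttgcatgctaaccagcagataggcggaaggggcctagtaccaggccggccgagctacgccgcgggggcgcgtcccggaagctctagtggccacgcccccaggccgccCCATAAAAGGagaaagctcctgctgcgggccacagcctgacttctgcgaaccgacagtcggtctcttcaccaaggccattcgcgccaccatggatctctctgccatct
The Btg2 window holds 1 TGACGTCA, found in 1.79% of the 32851 promoters of the same length, and 2 CCAAT, found in 37.4%. Fos has 1 TATAAA (13.6% of promoters) and 1 match to the NF-kB site (4.51%), Ier3 has 1 match to the NF-kB site and 2 CCAAT, and Zfp36 has 1 match to the CArG box (1.63%). TGANTCA, present in 7.81% of promoters, was in none of these 4 windows. Of the other promoters searched, those of Dusp2 and Id3 held 0 matches, that of Tnf 1 TATAAA, and that of Junb 1 TATAAA and 1 CCAAT. A match describes the letters in these windows and not binding.

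Across all genes, donors at 15 min were close to donors at 0 min. In the fit of all libraries of experiments 1 to 3, with edgeR's quasi-likelihood test, the experiment as a block and Benjamini-Hochberg adjustment, 0 of 13079 tested genes (0%) were called at an adjusted p under 0.05. The smallest adjusted p was 1, and 351 genes (2.68%) had an unadjusted p under 0.05, of which 190 (1.45%) were higher and 161 (1.23%) lower at 15 min. The share of 2.68% lies below the 0.05 that unchanged genes would give on average. The 0 calls therefore do not show that no gene changed. Common variation between libraries was 16.1%, as edgeR's biological coefficient of variation. The data bounded most changes closely: the 95% interval of the log2 fold change lay within a 2-fold change in either direction for 5920 of the 6028 genes between 10 and 100 CPM (98.2%), and for 1696 of the 1708 genes above 100 CPM (99.3%). Between 1 and 10 CPM this held for 55.1% of 3356 genes and below 1 CPM for 0.101% of 1987 genes, so for most genes below 1 CPM a 2-fold change lay within the interval.

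Fitted on their own with the same test and block, the 6 donor libraries gave a variation of 8.03%, and 89 of 11418 genes (0.779%) were called, 29 higher (0.254%) and 60 lower (0.525%) at 15 min. These differences were small, with a median absolute log2 fold change of 0.29, and 3 of the 89 exceeded a log2 fold change of 1 in size. The test chose them for agreement over these 3 pairs, and over all 13079 genes the changes of the pairs correlated at r = 0.041, 0.020 and 0.0027, a description across genes that share libraries. Of the 89, 31 had an unadjusted p under 0.05 in the fit of all experiments, and 0 were called there. Without the block, the 6 libraries gave 0 called genes and 111 at an unadjusted p under 0.05, against 1217 (10.7%) with it. Genes named from this fit below were chosen after their values were seen.

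**Figure D1:**
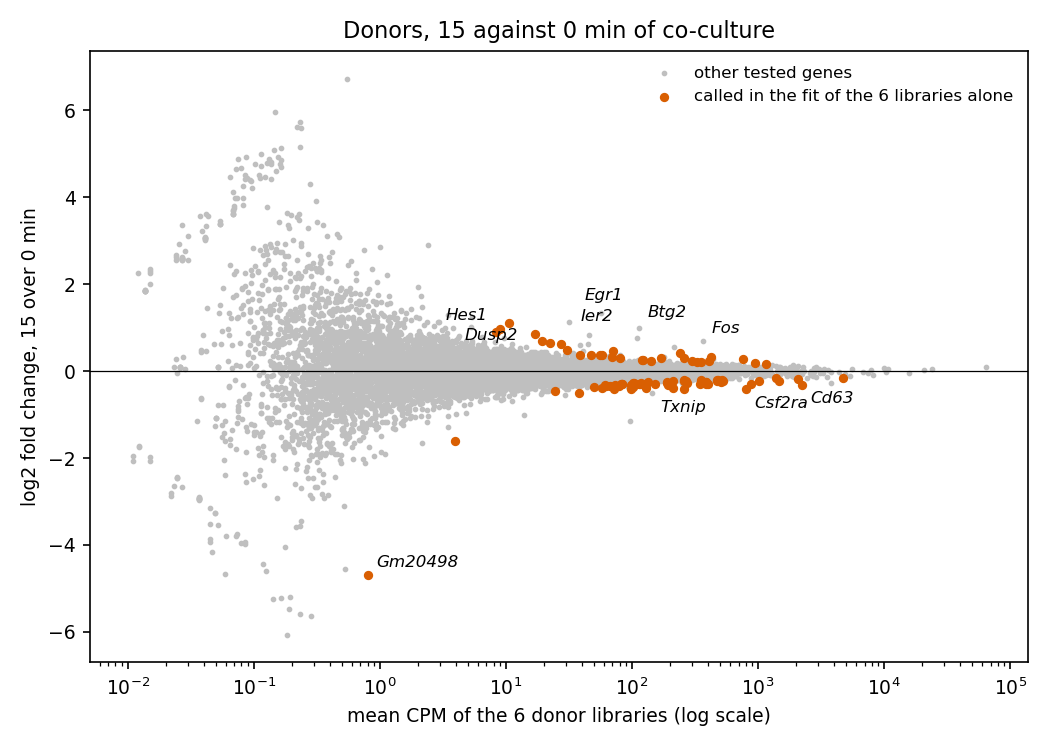
Log2 fold change of donors at 15 min over 0 min in the fit of experiments 1 to 3 (vertical axis), for the 13079 tested genes. The horizontal axis is the mean CPM of the 6 donor libraries (log scale). Orange points are the 89 genes called in the fit of the 6 libraries alone. In that fit all but 3 of them, Gm20498 being the lowest, had a log2 fold change of at most 1 in size. Btg2, Egr1, Ier2 and Fos, which were higher, are not among the 89.

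The gene with the smallest p-value in the fit of all experiments was Btg2 (chromosome 1, 134075170 to 134079120, minus strand, GRCm38), an early gene whose product restrains proliferation and takes part in shortening mRNA tails. Btg2 stood at 60.7, 102 and 58.6 CPM at 0 min in experiments 1, 2 and 3, and at 189, 199 and 70.3 CPM at 15 min. It was thus higher in all 3 pairs, by much more in experiments 1 and 2 than in experiment 3, and the groups overlapped, because the 15 min value of experiment 3 lay below the 0 min value of experiment 2. In bulk libraries, more cells with a transcript and more of it per cell cannot be told apart. The means were 73.7 ± 24.3 and 153 ± 71.5 CPM (SD, n = 3 each), which corresponds to 1.00 on the log2 scale (SE 0.27, edgeR unadjusted p 0.00116, adjusted p 1).

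Fos, the AP-1 subunit most often used as a sign of recent stimulation (chromosome 12, 85473890 to 85477273, plus strand), followed the same pattern of experiments. Its levels were 377, 204 and 257.1 CPM at 0 min and 631, 495 and 243.8 CPM at 15 min. The first and second experiments were higher at 15 min and the third was level, and the change was 0.69 on the log2 scale (SE 0.28, edgeR unadjusted p 0.0215) over all 3. Egr1, a zinc finger factor induced by MAP kinase signalling, showed the widest split: 32.7, 41.4 and 24.2 CPM at 0 min against 119, 110 and 16.6 CPM at 15 min. Its log2 fold change was 1.35 with an SE of 0.73 and an interval from -0.15 to 2.85.

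Ier2, a short early gene of chromosome 8 (84661331 to 84662852, minus strand), went from 27.7 to 68.4 CPM in experiment 1 and from 39.5 to 74.1 CPM in experiment 2. In experiment 3 it was 32.0 and 31.2 CPM. Nr4a1, an orphan nuclear receptor of the early response, was 16.1 and 60.5 CPM in experiment 1, 11.8 and 28.4 CPM in experiment 2, and 38.7 and 35.5 CPM in experiment 3. Experiment 3 therefore started from a higher Nr4a1 level than the other experiments at 0 min, which was not so for Fos, Egr1 or Ier2.

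Among genes that end the response, Zfp36 was 198, 147 and 170 CPM at 0 min and 363, 230 and 181 CPM at 15 min, and Ier3, a regulator of survival downstream of NF-kB, was 91.7, 68.9 and 85.8 CPM and then 202, 116 and 93.0 CPM. Spry2, an inhibitor of receptor signalling, was lower in each pair, at 7.61, 4.77 and 13.4 CPM and then 4.50, 4.43 and 9.40 CPM (edgeR unadjusted p 0.121). For Ier3 every 15 min library stood above every 0 min library, by little in experiment 3, and the log2 fold change was 0.76 (SE 0.33, edgeR unadjusted p 0.0322). Among inflammatory mediators, the cytokine gene Tnf was 24.2, 48.9 and 31.9 CPM at 0 min and 52.6, 78.6 and 31.2 CPM at 15 min. Tob1, a relative of Btg2, was low but higher in each pair, at 1.79, 2.78 and 3.03 CPM and then 3.24, 4.35 and 5.39 CPM.

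**Figure D2:**
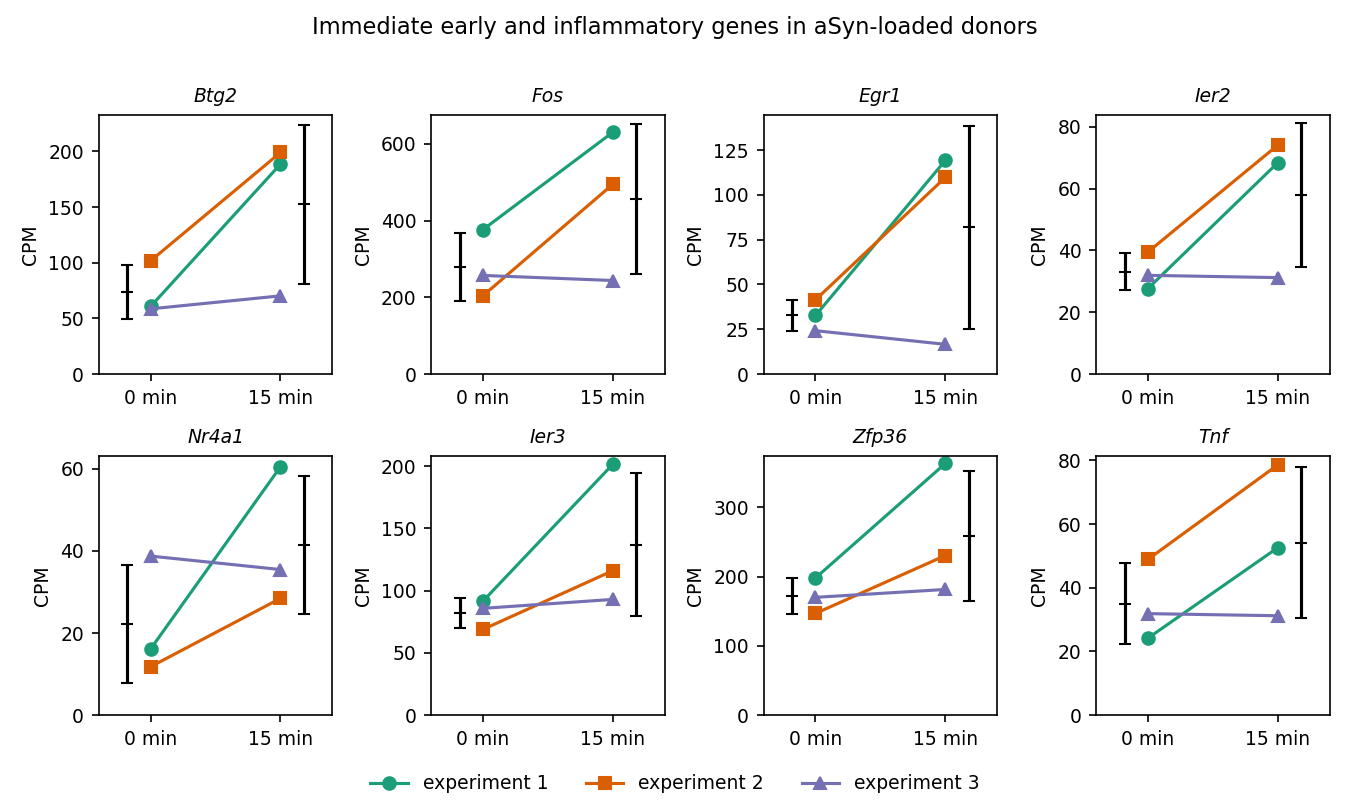
CPM of 8 early-response genes in donors at 0 and 15 min; coloured lines join the libraries of 1 experiment, and black bars give the mean and SD of the 3 libraries. Btg2, Fos, Egr1, Ier2, Nr4a1, Ier3, Zfp36 and Tnf were higher at 15 min in experiments 1 and 2, while the lines of experiment 3 are nearly flat, Egr1 going from 24.2 to 16.6 CPM.

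Leaving out experiment 3 gave calls that the fit of all 3 experiments did not. Without experiment 3, 4 of 12786 genes (0.0313%) were called in donors at 15 against 0 min. Fos (log2 fold change 0.97, edgeR adjusted p 0.0332), Btg2 (1.28, adjusted p 0.0479) and Ier2 (1.08, adjusted p 0.0479) were higher. Txnip, which binds thioredoxin and limits glucose uptake, was lower (-0.70, adjusted p 0.0332). Txnip measured 193, 216 and 102 CPM at 0 min and 106, 151 and 91.8 CPM at 15 min, lower in each pair, the experiment 3 pair by the least. Leaving out experiment 1 or experiment 2 instead gave 0 called genes.

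Experiment 4, also of passage 2, was left out of the fit, as it has no donor library at 0 min, but its donors can be set beside its loaded cells without co-culture. There Btg2 was 51.5 CPM without co-culture, 52.3 CPM at 15 min and 56.7 CPM at 30 min, and Egr1 was 3.23, 4.04 and 5.42 CPM. Fos was 124 CPM without co-culture and 219 CPM at 15 min, and Nr4a1 4.54 and 2.78 CPM. From cells without co-culture to 15 min, Ier2 went from 14.6 to 20.1 CPM and Zfp36 from 84.4 to 133 CPM. Ier3 went from 421 to 366 CPM and Tnf from 71.5 to 62.3 CPM. These steps compare single libraries, and their reference is not the 0 min group. In experiments 1 to 3 loaded cells without co-culture differed from 0 min donors in Csf2ra and Cd63, as given below. Early genes of experiment 4 thus lay in both directions, with Fos, Zfp36 and Ier2 among the higher. Its Btg2, like that of experiment 3, stayed far below the 189 and 199 CPM that donors of experiments 1 and 2 reached. Experiments 3 and 4 share the passage number, and whether passage has a part in the Btg2 level was not tested.

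The lists of genes were read by experiment. Of 12 tested AP-1 factors, 0 were called, and 2 were higher in all 3 pairs, as were 16.5% of all tested genes. Their median log2 fold change was 0.15, against 0.0073 over all tested genes. In experiment 1, 3 of the 12 exceeded a log2 change of 0.5, in experiment 2 also 3 and in experiment 3 it was 0 of 12. The 31 early genes of the Egr, Ier, Nr4a and Klf families and their neighbours had a median of 0.17, with 11 higher in all 3 pairs (16.5% of all tested genes were) and 1 lower (14.9%). Their medians were 0.20, 0.35 and 0.05 in experiments 1, 2 and 3, and 9, 9 and 4 of them exceeded a log2 change of 0.5, while 1, 2 and 5 lay below -0.5. Across all 13079 genes, 1378, 1140 and 1607 exceeded 0.5 in the 3 experiments, so the third did not have fewer large changes in general. In acceptors the medians were 0.25 for the AP-1 factors and 0.23 for the 31 early genes. Of the 31, 7, 10 and 13 exceeded 0.5 in acceptors, against 1259, 1336 and 2056 of all genes. At an unadjusted p under 0.05 (edgeR), 6 of the 31 were higher in acceptors (1.71% of all tested genes) and 3 in donors (1.45%).

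Feedback regulators of MAP kinases and receptors (18 tested) had medians of 0.16, 0.10 and -0.17 in experiments 1, 2 and 3. Of them 2 were higher and 2 lower in all pairs (16.5% and 14.9% of all tested genes). Their median over all experiments was 0.08 in donors and 0.23 in acceptors. The 17 regulators of mRNA decay had 0.12, 0.10 and -0.02. Zfp36, Btg2 and Tob1 were the 3 members at an unadjusted p under 0.05 (edgeR), all higher, as were 1.45% of all tested genes. Btg1 and Btg2 are also on the list of Egr, Ier, Nr4a and Klf genes above, so these lists are not separate. NF-kB feedback genes and inflammatory mediators (40 tested) had 0.06, 0.13 and -0.02. In all these lists 0 genes were called in the fit of all experiments. In the fit of the 6 libraries alone Junb, Id3, Dusp2, Il1b and Zfp36l1 were called higher and Il1rn lower.

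The heat shock and endoplasmic reticulum stress lists had small median changes, with more genes lower than higher in all 3 pairs. Over all tested genes, 14.9% were lower and 16.5% higher in all 3 pairs. Of 24 heat shock proteins and cochaperones, 12 were lower in all 3 pairs and 2 higher, with a median of -0.10. Hsp90ab1, a cytosolic chaperone, was 1545, 1455 and 1732 CPM at 0 min and 1376, 1239 and 1445 CPM at 15 min, lower in each pair and with no overlap between groups (log2 fold change -0.22, SE 0.10, edgeR unadjusted p 0.0285). The 26 genes of endoplasmic reticulum and integrated stress had a median of -0.06, 10 being lower and 4 higher in all pairs. Its chaperone Hspa5 was 648, 1199 and 961 CPM and then 588, 1095 and 830 CPM, lower in each pair while the groups overlapped.

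The NRF2 and antioxidant list had a median of 0.05 over 30 genes, and 13 were higher and 1 lower in all 3 pairs. Over all tested genes the shares were 16.5% higher and 14.9% lower. Gpx4, which detoxifies lipid peroxides, was 172, 164 and 172 CPM at 0 min and 186, 192 and 207 CPM at 15 min, without overlap, a change of 0.21 on the log2 scale (SE 0.13, edgeR unadjusted p 0.112). Gclm, a subunit of the rate-limiting enzyme of glutathione synthesis, was 49.2, 38.1 and 88.6 CPM and then 50.5, 54.7 and 115 CPM. Respiratory chain subunits (42 tested, median 0.05) were higher in all pairs for 14 genes and lower for 7. Cyc1 and Cox7c were higher at an unadjusted p under 0.05 (edgeR), as were 1.45% of all tested genes. Cyc1, a haem protein of complex III, was 52.2, 51.8 and 56.2 CPM and then 59.2, 61.6 and 70.9 CPM.

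Interferon-stimulated genes had a median of -0.01 over 44 genes in donors, with 0 of them beyond a log2 change of 0.5 in either direction in any experiment. Lysosomal genes (40 tested) had a median of -0.01, with 13 lower and 8 higher in all pairs (14.9% and 16.5% of all tested genes). Actin and tunnelling nanotube genes (39 tested) had a median of -0.02, chemoattractant and purinergic receptors (32) -0.02, cholesterol synthesis (28) -0.03, hypoxia and glycolysis (30) -0.02 and the cell cycle (43) 0.02. In these lists 0 genes were called in the fit of all experiments. In the 6 libraries alone, the interferon-stimulated gene Ifi27l2a was called higher (log2 fold change 0.22, edgeR adjusted p 0.0201), and Ebp, an enzyme of cholesterol synthesis, lower (-0.34, adjusted p 0.0213). Gapdh, of the hypoxia and glycolysis list, was called lower there too, and the calls among lysosomal genes are given below.

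**Figure D3:**
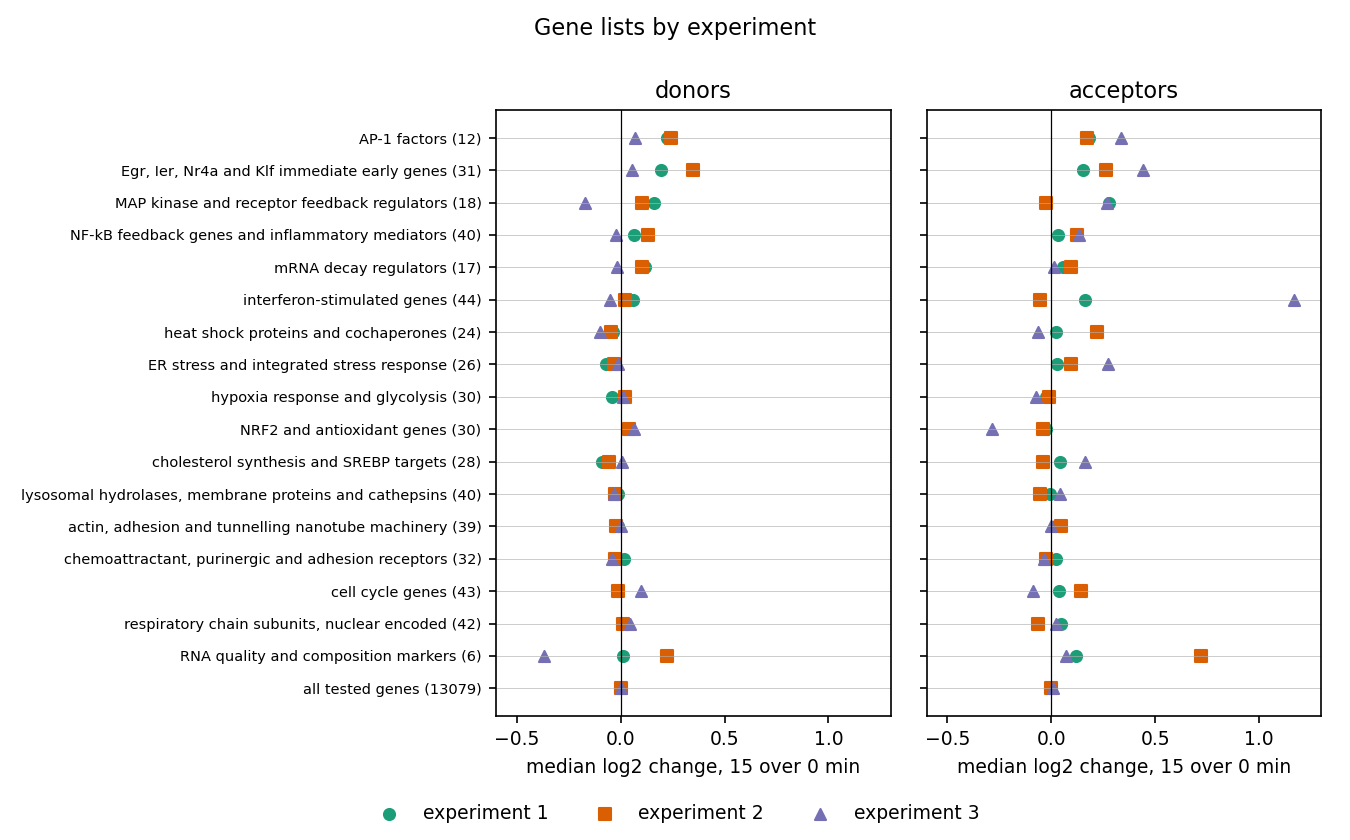
Median log2 change at 15 over 0 min of each gene list (rows, number of tested genes in brackets) in experiments 1, 2 and 3, for donors (left) and acceptors (right). In donors the early gene lists stand to the right in experiments 1 and 2 and near 0 in experiment 3. In acceptors the AP-1 list and the Egr, Ier, Nr4a and Klf list stand to the right in experiments 1, 2 and 3. The interferon-stimulated genes of experiment 3 acceptors stand apart at 1.17.

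Of the 89 genes called in the fit of the 6 libraries, Csf2ra, the receptor chain for the growth factor GM-CSF, had the smallest adjusted p. It was 841, 841 and 1062 CPM at 0 min and 693, 601 and 749 CPM at 15 min. All 15 min libraries lay below all 0 min libraries, by -0.42 in log2 units, with an SE of 0.05 and an adjusted p of 1.41e-05 from edgeR. In the fit of all experiments the same difference had an SE of 0.25 and an unadjusted p of 0.109.

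Cd63, a tetraspanin of late endosomes and lysosomes (chromosome 10, 128900989 to 128912822, plus strand), was 2610, 2150 and 2614 CPM at 0 min and 2106, 1684 and 2182 CPM at 15 min. It was lower in each pair, although the groups overlapped, by -0.31 in log2 units, with an SE of 0.04 and an adjusted p of 4.29e-05 from edgeR in the 6 libraries. Subunits of the proton pump that acidifies lysosomes, Atp6v1b2 (log2 fold change -0.21) and Atp6ap1 (-0.29), and the lysosomal GTPase Arl8a (-0.36) were also called lower there. Asah1, the lysosomal ceramidase, was called higher (0.25). On the list of 40 lysosomal genes, 2 were called lower and 1 higher in this fit, against 0.525% and 0.254% of all 11418 tested genes. Atp6ap1 and Arl8a are not on that list, whose median log2 fold change was -0.01 in the fit of all experiments.

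Clic1, a chloride channel protein, was 135, 146 and 162 CPM and then 116, 101 and 120.0 CPM, without overlap. Pcbp1, an RNA-binding protein and iron chaperone, was 244.6, 224.96 and 254.5 CPM and then 179.8, 171 and 203 CPM. In the fit of all experiments Pcbp1 was among the 10 lower genes of smallest p (log2 fold change -0.39, SE 0.13, edgeR unadjusted p 0.00405), without a call. Gapdh, a glycolytic enzyme often used as a reference, was 204, 146 and 293 CPM and then 154, 123 and 234.2 CPM. Sirpa, Spp1 and Sdc3, surface or secreted proteins of microglia, were called lower with log2 fold changes of -0.18, -0.14 and -0.29.

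The 29 genes called higher in the 6 libraries had a median level of 80.1 CPM, against 16.3 CPM over all tested genes. Hes1, a repressor in the Notch pathway, was 6.63, 2.98 and 9.15 CPM at 0 min and 12.2, 7.62 and 15.1 CPM at 15 min, higher in each experiment including the third (log2 fold change 0.96, SE 0.20, edgeR adjusted p 0.0183). Id3, an inhibitor of helix-loop-helix factors, was 10.1, 32.5 and 22.7 CPM and then 23.5, 45.6 and 29.9 CPM. Cd69, an early activation antigen of leukocytes, was 13.8, 25.4 and 6.35 CPM and then 22.8, 34.1 and 13.1 CPM. Each of them was higher in every pair, and in each the groups overlapped because the experiments began at different levels.

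Dusp2 was 7.70, 21.3 and 8.71 CPM and then 20.2, 34.3 and 10.2 CPM, again with the smallest step in experiment 3. Il1b, the interleukin-1 beta gene, was 116, 297 and 225.7 CPM and then 187, 363 and 263 CPM (log2 fold change 0.39, SE 0.07, edgeR adjusted p 0.0193 in the 6 libraries). In the fit of all experiments the SE of Il1b was 0.49. Junb (log2 fold change 0.31), Tgfb1 (0.36), Zfp36l1 (0.30) and Pabpc1 (0.27) were also called higher.

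**Figure D4:**
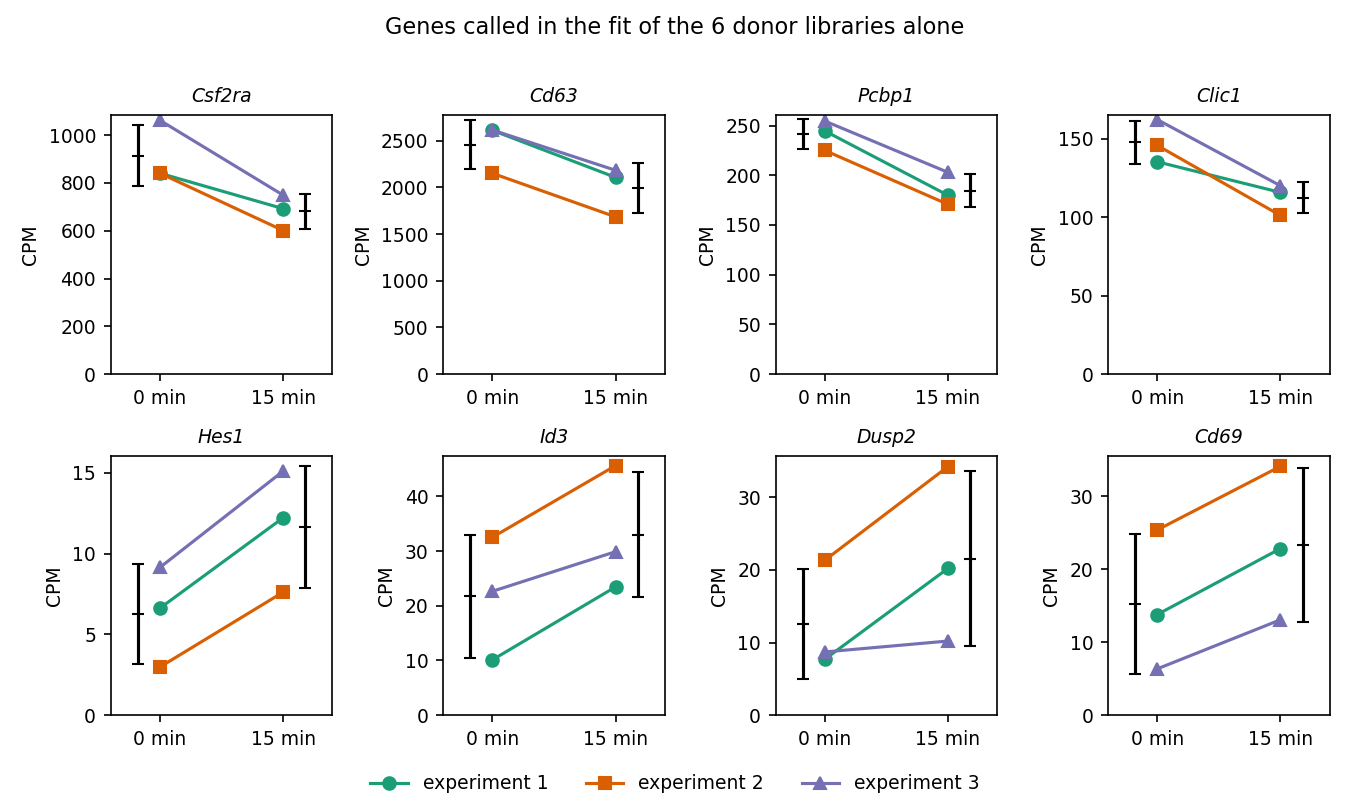
CPM of 8 genes called in the fit of the 6 donor libraries alone, with lines joining the libraries of 1 experiment and black bars for the mean and SD (n = 3). Csf2ra, Cd63, Pcbp1 and Clic1 were lower and Hes1, Id3, Dusp2 and Cd69 higher at 15 min in all 3 experiments, although the experiments start from different levels.

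To see how far calls in the 6 libraries rested on single experiments, each was left out in turn, which gave between 53 and 167 called genes. These fits, and that of DESeq2 below, reuse the libraries that chose the 89 genes, so overlap with the 89 is not an independent check. Of the 89 genes, 70 were called without experiment 1, 37 without experiment 2 and 55 without experiment 3. In all 3 of these fits 24 were called, among them Csf2ra, Cd63, Clic1, Pcbp1, Gapdh, Hsp90ab1, Cd69, Id3 and Il1b. DESeq2 on the same libraries called 72 genes, 15 higher and 57 lower, 58 of them among the 89. Of the higher genes described above, Hes1, Id3, Cd69, Dusp2, Il1b, Tgfb1 and Asah1 were not called by DESeq2, while Junb, Zfp36l1 and Pabpc1 were. Gm20498, Vopp1 and Washc1, which were lower, were not called by it either.

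The 10 genes of smallest unadjusted p with the same direction in all pairs were also listed for each direction in the fit of all experiments, and 0 of them were called. Besides Btg2, the higher genes included Trpm4, a calcium-activated cation channel, at 5.55, 4.90 and 4.87 CPM and then 10.5, 6.68 and 7.68 CPM. Trim23 was 5.10, 4.71 and 4.35 CPM and then 7.55, 8.42 and 8.42 CPM. In both genes every 15 min library exceeded every 0 min library, as in 2.62% of all tested genes.

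Zfp455, Prrc2a and Lrch4 were higher with log2 fold changes of 0.99, 0.38 and 0.33. Mt3, Fancb and Trim9 rested on few reads, with 0 to 2 counts at 0 min and 2 to 13 counts at 15 min. These lay at or near the floor of 3 counts, and no fold is given for them. For Mt3 and Trim9 the 13 counts were those of experiment 3. Of the lower genes, Phykpl, an enzyme of lysine breakdown, was 6.09, 5.57 and 4.50 CPM and then 2.43, 3.05 and 2.53 CPM (log2 fold change -0.997, SE 0.29, edgeR unadjusted p 0.00138). Vopp1, Fuz, Clcn6, Tssc4, Arfgap3, Tom1l2 and Washc1 had log2 fold changes between -0.59 and -0.37.

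The largest difference among these 10 lower genes was in Gm20498, a model on chromosome 12 (81358860 to 81532905, minus strand), with 19, 25 and 18 counts at 0 min and 1, 0 and 1 counts at 15 min. It spans Synj2bp and Cox16 on its own strand, so its reads may have been divided among these genes, and its identity is uncertain. Synj2bp (log2 fold change -0.01, SE 0.10) and Cox16 (0.06, SE 0.09) were level. Gm20605 (-1.61) shares its strand and position with Lrch4 and is uncertain in the same way. Junb, Il1b, Txnip, Gapdh, Pcbp1, Atp6v1b2, Trpm4, Phykpl, Vopp1 and Fuz overlap a counted gene on the opposite strand, and whether counting used strand is not given in the sources used here.

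Acceptors of the same labelled times were tested in the same way, and 0 of 13079 genes (0%) were called, with 509 (3.89%) at an unadjusted p under 0.05, 224 higher (1.71%) and 285 lower (2.18%). Their 6 libraries alone gave 4 called genes of 11319 (0.0353%), Cxcl2, Dusp1, Ier3 and Osm, all higher, and 738 (6.52%) at an unadjusted p under 0.05. In donors these had log2 fold changes of 0.28 (SE 0.30), 0.20 (SE 0.21), 0.76 (SE 0.33) and 0.46 (SE 0.32). For Dusp1, a MAP kinase phosphatase, donors were 475, 336 and 358 CPM at 0 min and 569, 527 and 279 CPM at 15 min.

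A test of the difference itself, the donor change minus the acceptor change, called 0 of 13079 genes (0%), with 357 (2.73%) at an unadjusted p under 0.05, 213 higher (1.63%) and 144 lower (1.1%) in donors. Its smallest adjusted p was 0.117, for Abca3, a lipid transporter. Abca3 was 5.02, 5.30 and 4.80 CPM and then 6.29, 7.47 and 7.93 CPM in donors (log2 fold change 0.52), while in acceptors its log2 fold change was -1.04. Tnf had a log2 fold change of 0.62 in donors and of -0.48 in acceptors, a difference of 1.10 (SE 0.46, edgeR unadjusted p 0.0237, not passing adjustment).

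In the test of the difference, 0 of the 12 AP-1 factors and 0 of the 31 early genes had an unadjusted p under 0.05, and that of Btg2 was 0.143 (edgeR). In acceptors Btg2 was 73.9, 86.7 and 45.0 CPM at 0 min, 85.5, 109 and 73.9 CPM at 15 min and 82.5, 102 and 109 CPM at 30 min. Nr4a1 in acceptors was 5.18, 1.91 and 5.69 CPM at 0 min, 8.12, 3.71 and 15.9 CPM at 15 min and 7.78, 3.88 and 45.0 CPM at 30 min. For both genes experiment 3 gave the largest acceptor step and the smallest donor step of the 3 experiments. In experiment 3 acceptors, 40 of 44 interferon-stimulated genes also exceeded a log2 change of 0.5 at 15 min, against 3 and 0 in experiments 1 and 2, and 0 in the donors of any experiment.

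Donors at 30 min were set against the same 0 min libraries, so the comparisons share their reference and are given side by side. At 30 min 0 of 13079 genes (0%) were called, with 441 (3.37%) at an unadjusted p under 0.05, with 1.8% of tested genes higher and 1.57% lower. The 30 min and 0 min libraries alone gave 53 called genes of 11342 (0.467%), 7 higher (0.0617%) and 46 lower (0.406%), and 1103 (9.72%) at an unadjusted p under 0.05. Btg2 was 207, 169 and 62.6 CPM at 30 min, and Egr1 was 167, 114 and 20.6 CPM, so experiments 1 and 2 were still high and the third was not. Fos was 468, 302 and 248.3 CPM, below its 15 min level in experiments 1 and 2. By 150 min Btg2 was 71.5, 79.1 and 47.2 CPM and Egr1 8.08, 26.2 and 11.5 CPM.

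Without experiment 3, 5 of 12786 genes (0.0391%) were called at 30 min, namely Jun, Ier2, Btg2 and Nr4a1 as higher and Txnip as lower. Jun, the partner of Fos in AP-1, was 79.2, 66.9 and 58.9 CPM at 0 min, 121, 101 and 53.4 CPM at 15 min and 159, 144 and 56.5 CPM at 30 min. Jun was thus higher at 30 than at 15 min in experiments 1 and 2, whereas Fos was lower at 30 than at 15 min.

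**Figure D5:**
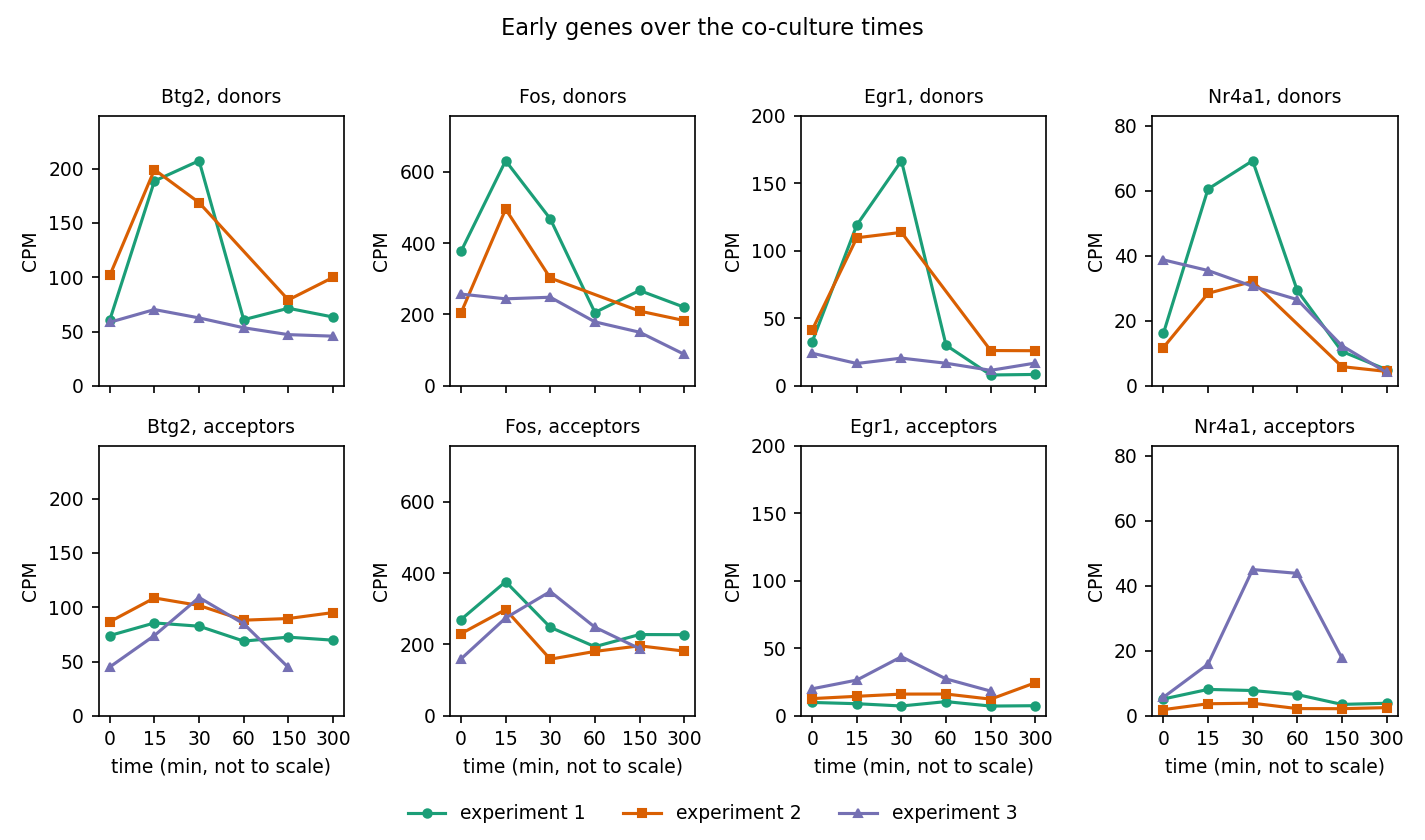
CPM of Btg2, Fos, Egr1 and Nr4a1 in donors (top) and acceptors (bottom) at 0, 15, 30, 60, 150 and 300 min (equally spaced, not to scale), 1 line per experiment; experiment 2 has no donor library at 60 min and experiment 3 no acceptor library at 300 min here. Donors of experiments 1 and 2 peak at 15 or 30 min, donors of experiment 3 do not, and among acceptors Nr4a1 reaches 45.0 CPM at 30 min in experiment 3.

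Csf2ra and Cd63 are 2 of the 60 genes called lower at 15 min in the 6 libraries. They were placed beside loaded cells without co-culture, with the same 0 min libraries as reference. Csf2ra was 462, 456 and 620 CPM in those cells, below the 841, 841 and 1062 CPM of donors at 0 min and below the 693, 601 and 749 CPM at 15 min. Cd63 was 1641, 1468 and 1808 CPM there, again below both donor groups. At 150 min donors had 421, 593 and 506 CPM of Csf2ra and 1623, 1443 and 1623 CPM of Cd63. In experiments 1, 2 and 3 the 15 min value of both genes thus lay between the 0 min value and that of loaded cells without co-culture. Both genes were chosen as lower at 15 than at 0 min, so that side of the order was fixed by the choice. In experiment 4 the 15 min donors lay below loaded cells without co-culture instead, at 178 against 200.3 CPM for Csf2ra and 1105 against 1395 CPM for Cd63.

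Genes that respond to the load itself were nearly level over the first 15 min. In the fit of experiments 1 to 3, 840 genes (6.42%) were called higher and 756 (5.78%) lower in loaded cells without co-culture than in untreated cells, libraries that the donor comparison does not use. In donors at 15 against 0 min, the 840 genes had a median log2 fold change of 0.02, with 8 at an unadjusted p under 0.05 higher and 3 lower. The 756 genes had a median of -0.03, with 9 higher and 8 lower. By experiment the medians of both sets lay between -0.04 and 0.03. This description was added after seeing the data.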

How the data were processed

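The table of counts that the authors deposited holds whole, unnormalized read counts by gene symbol, for 16632 genes that each total at least 10 over all libraries, as its values show. Whether counting used strand is not given in the sources used here. Libraries were QuantSeq 3′ FWD, sequenced as 50 bp single reads, per the labels' protocols. The submitters' processing notes name STAR, Partek, DESeq2 and mm10 without roles. Reads near the 3′ end give levels per transcript that do not depend on length. PCR duplicates cannot be told apart, since no molecular identifiers are stated, so the floor of 3 counts (0.200 to 0.262 CPM) covers counting error only.

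Counts of experiments 1 to 3 (40 units, 2 untreated libraries of the same number summed) were fitted with edgeR 4.0.16 in R 4.3.3: filterByExpr with a minimum count of 10, TMM factors, robust quasi-likelihood test, a term for the group and one for the replicate number as a block. CPM use TMM-scaled library sizes, and pair changes a prior count of 2. The replicate numbers come from the titles. Deviations from the group means correlated at 0.43, 0.50 and 0.49 between same-numbered donor libraries at 0 and 15 min, so the numbers were taken to pair the libraries. The average between different numbers was -0.24. It follows largely from the same-number values, because deviations from a group mean cancel out, and is no separate support for the pairing. Gene positions are from GENCODE M21 (GRCm38), where 224 of 225 named genes matched once.

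Genes named were the 10 of smallest p in each direction with the same sign in all pairs, up to 4 per list, and markers. Of these, 1 is not reported here. The members and lists were chosen with earlier results of these data known. Alternatives were DESeq2 1.42.0, RLE factors, other filters, no block, other sets of libraries and leaving out each experiment. The scripts were tested on simulated data. The normalized signal that the authors deposited was not used.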

Additional observations from a re-analysis of the deposited data

How the results depend on the processing

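Calls in donors at 15 against 0 min depended on which libraries shared the estimate of spread. Counts were 0 in the fit of experiments 1 to 3, and 89 with the 6 libraries alone. Fits added after seeing the data gave 72 by DESeq2 on the 6 libraries, and on them 167 without replicate 1, 53 without replicate 2 and 107 without replicate 3. Leaving out 1 experiment in the fit of all groups gave 0 to 4 genes for donors at 15 min and 0 to 5 at 30 min. With the compared libraries alone, donors at 30 min gave 53 and acceptors 4. DESeq2 on all groups gave 1 in acceptors (Gtf2h1) and 1 for the donor minus acceptor difference (Abca3, adjusted p 0.0177). Without the replicate block, 0 genes were called in donors at 15 min, with 137 at an unadjusted p under 0.05, and the block changed no other call of the fit of all groups. RLE factors, no filter or a minimum count of 50, omission of Rn45s and adding experiment 4 gave 0 as well, as did the 12 donor and acceptor libraries, a fit added later. Among 70 genes followed over 1166 gene and setting combinations, Dusp1 reversed, from a log2 fold change of 0.20 to -0.0147 without replicate 2 (0.422 without replicate 3) and to -0.0454 in the 6 libraries without replicate 2. List medians moved by more than the spread over pairs in 19 of 187 cases. The cause was not tested. Below 1 CPM, 2 of 1987 genes had an interval within a 2-fold change, and what sets this was not tested.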
